A study of Mus musculus with 2 samples.

Results

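The genes described here encode potassium channels of the mouse, apart from the pore subunits of the ATP-sensitive channel. They are the rows of the count files whose symbol consists of Kcn, a subfamily letter or letters and a number, with Kcnj8 and Kcnj11 left out. This gave 90 genes in 20 subfamilies, out of 32531 genes counted. The RNA came from the cerebral cortex of adult mice of the line Gdnf-TRAP ES2243, which carries the transgene Gdnf-EGFP/Rpl10a and received no treatment. In such mice a ribosomal protein tagged with green fluorescent protein follows the regulatory sequences of Gdnf, and ribosomes are pulled from a homogenate with antibodies to the tag. Both libraries (IP1, IP2) hold immunopurified RNA, so the 2 form 1 group, and the study's design text names pericytes as the cells profiled. The labels used here do not give strain or sex, nor whether the libraries came from different animals or from pools, so the spread between them may be technical. RNA from unpurified cortex was not analysed here, and all values are levels, not enrichments.

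Potassium channels let potassium leave the cell and so hold the membrane potential negative. In contractile cells of vessels, more open potassium channels mean less calcium entry and relaxation. Inward rectifiers and tandem-pore channels set the resting potential, voltage-gated channels repolarize after depolarization, and calcium-activated channels couple the potential to intracellular calcium. Astrocytes use inward rectifiers to clear potassium that neurons release, and oligodendrocytes carry them too. Auxiliary subunits have no pore of their own and change the gating or surface number of the channel they join.

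Reads counted in genes numbered 65200231 for IP1 and 72732502 for IP2. Levels are counts per 1000000 of these reads (CPM). A count of 0 allows up to 3 reads, or 0.0460 CPM in IP1 and 0.0413 in IP2. Transcript lengths were not used, so a CPM value gives the reads a gene drew and not its transcripts relative to another gene. All 12 markers of pericytes and mural cells that were looked up reached 10 CPM in both libraries, as did all 8 pan-neuronal, 8 oligodendrocyte and 8 oligodendrocyte precursor markers and 7 of 8 astrocyte markers. All 8 arterial smooth muscle markers did too, and of all genes 28.3% did. Only 1 of 8 endothelial markers did (Slc2a1), and 0 of 8 microglial markers did. Of the other endothelial markers, Flt1 (9.893 CPM in IP1, 12.03 in IP2) and Esam (9.54 and 15.44 CPM) passed 10 CPM in IP2 alone. So did Cdh5 (6.825 and 11.01 CPM). Tek, Kdr, Pecam1 and Cldn5 stayed under 10 CPM in both libraries, with Cldn5 at 5 reads in IP1 and 0 in IP2. Summed levels were 15140 CPM in IP1 and 13250 in IP2 for pan-neuronal markers, mostly Snap25 (12770 and 10800 CPM). For pericyte and mural markers they were 6676 and 6475 CPM, mostly Rgs5 (4841 and 4061 CPM). Arterial smooth muscle markers summed to 2153 and 1862 CPM. A channel that neurons, glia or arterial smooth muscle also use cannot be credited to pericytes from these counts. In such bulk RNA, fewer cells of a type and less RNA per cell cannot be told apart.

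Potassium channel genes together drew 0.307% of the counted reads of IP1 and 0.335% of those of IP2, with exact 95% intervals of 0.305 to 0.308% for IP1 and 0.334 to 0.337% for IP2. In both libraries, 66 of the 90 genes (73.3%) passed 1 CPM and 42 (46.7%) passed 10 CPM. Of all genes in the table, 41.3% passed the lower limit and 28.3% the higher one. The spans of 10 of the 42 overlap another counted gene, so their counts are less certain, namely Kcnma1, Kcnd3, Kcnip1, Kcnip4, Kcnab2, Kcnh7, Kcnmb1, Kcnab1, Kcnt2 and Kcnn2. Another 13 channel genes had reads but were under 1 CPM in at least 1 library, and some of them passed 1 CPM in the other. No read was counted for 11 of the 90 channel genes, against 39.8% of all genes. The median channel gene was at 9.26 CPM in IP1 and 10.15 in IP2, while that of all genes was 0.184 in IP1 and 0.0962 in IP2. The 10 channel genes with most reads took 54.95% of the channel CPM in IP1 and 56.65% in IP2, and 9 of those 10 were shared. Just inside the limit of 10 CPM in both lay Kcnn2 (16.4 CPM in IP1, 10.8 CPM in IP2) and Kcna4 (13.2 and 12.3 CPM). Among those just outside it were Kcnt1 (9.51 and 9.49 CPM), Kcnmb4 (9.65 and 9.12 CPM), Kcnk3 (9.00 and 12.2 CPM) and Kcnj4 (10.3 and 8.35 CPM).

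**Figure D1:**
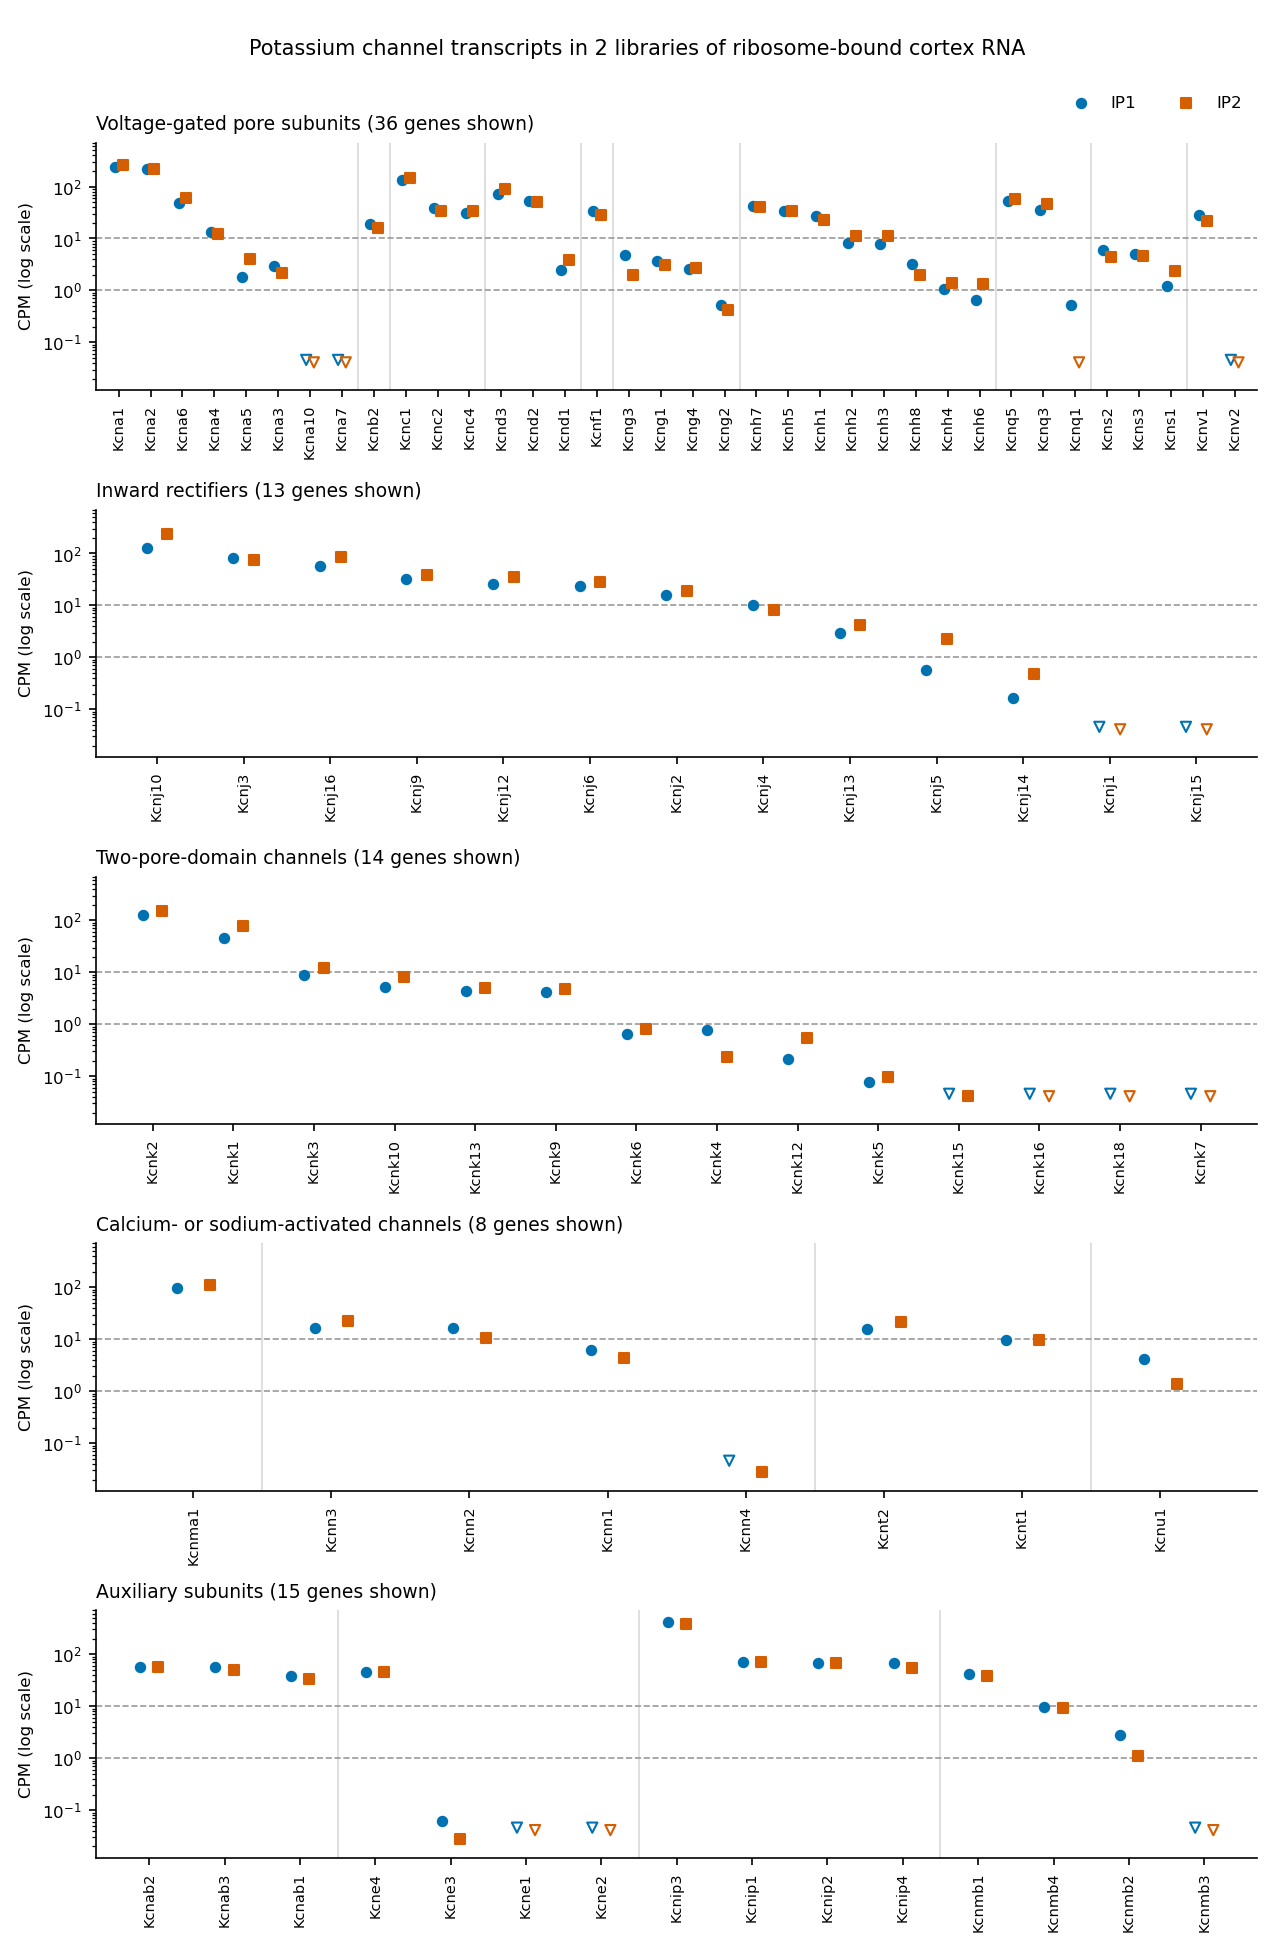
Level of 86 of the 90 potassium channel genes in IP1 (blue circles) and IP2 (orange squares), in CPM on a log axis, with 1 panel per class and grey vertical lines between subfamilies. Dashed lines mark 1 and 10 CPM, and open triangles mark a count of 0, drawn at the limit of 3 reads. In most genes the libraries lie close together, and Kcnip3, at 412 CPM in IP1 and 378 in IP2, stands at the top.

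**Figure D2:**
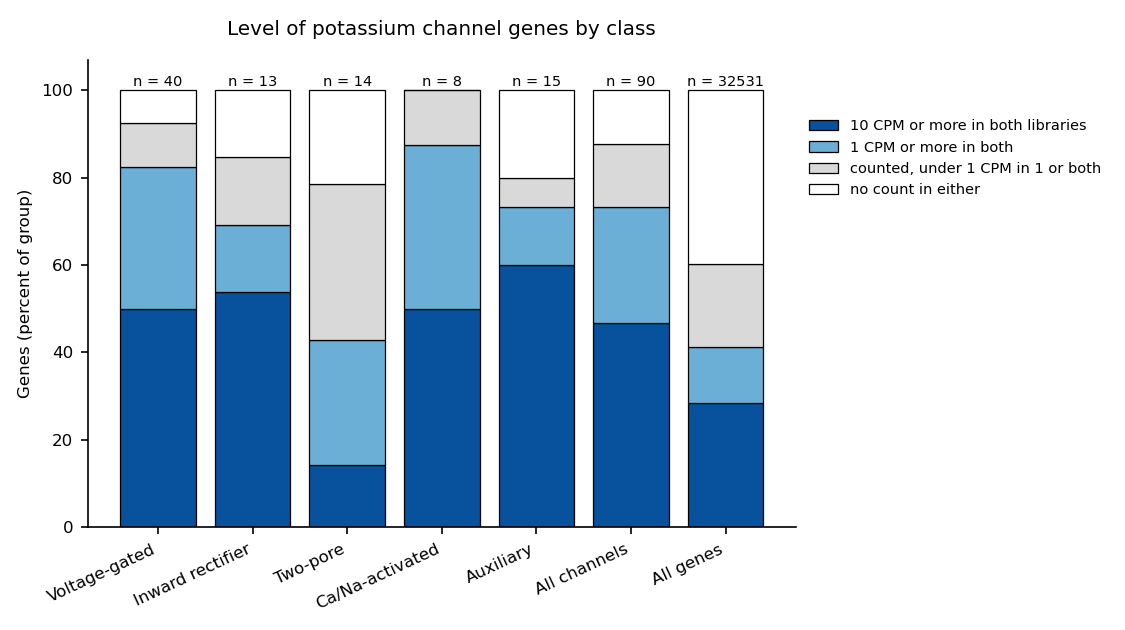
Percent of genes at each level in the 5 classes of potassium channel genes, in all 90 channel genes and in all 32531 genes, with the number of genes above each bar. The dark part is 60.0% in auxiliary subunits, 14.3% in tandem-pore (two-pore) channels, 46.7% in all channel genes and 28.3% in all genes.

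Both parts of the large-conductance calcium-activated channel, which is known from vascular smooth muscle among other cells, were counted. Its pore gene Kcnma1 (chr14:23292288-24005110, mm10) was at 96.2 CPM in IP1 and 111.9 in IP2, a mean of 104 ± 11.1 CPM (SD, n = 2). Kcnmb1 (chr11:33962955-33973641), whose product raises the calcium sensitivity of that pore and is known best from smooth muscle, was at 42.4 CPM in IP1 and 38.4 in IP2. Both genes were therefore well above 10 CPM in each library. Kcnma1 is also on the list of neuronal channels used below, and its span overlaps another counted gene. The gene span of Kcnmb1 lies within that of Kcnip1, and the strand setting is not given, so how reads in parts shared by both genes were assigned is not known. Of the other accessory subunits of this channel, Kcnmb4, the main form of brain neurons, was at 9.65 and 9.12 CPM, Kcnmb2 at 2.78 and 1.11 CPM, and Kcnmb3 had no read.

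The promoters of this pore and its partner differ in base composition. The sequences below run from 250 bases before to 50 bases after the start in the RefSeq annotation (GRCm38.p6), 5′ to 3′ on the strand of the gene, and CG pairs are in capitals. They show a window dense in CG pairs (Kcnma1, chr14:24004156-24004455, minus strand, 36 pairs) beside one with 1 pair (Kcnmb1, chr11:33962763-33963062, plus strand), although both genes passed 10 CPM.
Kcnma1: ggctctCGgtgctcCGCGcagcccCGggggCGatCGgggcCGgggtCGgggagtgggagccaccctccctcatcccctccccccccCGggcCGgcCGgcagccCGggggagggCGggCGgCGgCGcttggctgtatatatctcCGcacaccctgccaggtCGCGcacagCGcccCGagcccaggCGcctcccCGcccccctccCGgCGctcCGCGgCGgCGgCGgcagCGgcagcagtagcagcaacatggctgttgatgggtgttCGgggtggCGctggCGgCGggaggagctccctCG
Kcnmb1: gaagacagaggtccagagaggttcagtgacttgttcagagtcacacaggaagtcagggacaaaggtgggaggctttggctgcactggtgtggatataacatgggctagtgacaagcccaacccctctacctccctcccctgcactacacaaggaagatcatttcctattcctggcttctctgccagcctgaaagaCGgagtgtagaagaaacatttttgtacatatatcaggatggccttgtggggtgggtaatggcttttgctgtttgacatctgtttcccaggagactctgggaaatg

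Small-conductance calcium-activated channels contribute to the afterhyperpolarization of neurons. Kcnn3 was at 16.7 CPM in IP1 and 22.2 in IP2. Kcnn2 was at 16.4 CPM in IP1 and 10.8 in IP2, and Kcnn1 at 6.15 and 4.45 CPM. Kcnn4, the intermediate-conductance channel of blood cells and endothelium, had 0 reads in IP1 and 2 in IP2, which is under the limit that a count of 0 allows. Among the sodium-activated channels Kcnt2 was at 15.4 CPM in IP1 and 21.7 in IP2 and Kcnt1 at 9.51 and 9.49 CPM. Kcnu1, which encodes a channel of sperm, was counted at 4.23 CPM in IP1 and 1.40 in IP2. In all, 4 of the 8 genes of this class reached 10 CPM in both libraries.

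Inward rectifiers were led in reads by the glial pair Kcnj10 and Kcnj16. Kcnj10 (chr1:172341210-172374085), the main inward rectifier of astrocytes and oligodendrocytes, was at 130.1 CPM in IP1 and 233.9 in IP2, a mean of 182 ± 73.4 CPM (SD, n = 2). Kcnj16 (chr11:110968033-111027968), whose product joins it in a channel sensitive to pH, was at 57.4 CPM in IP1 and 85.4 in IP2. For both genes IP2 was the higher library. Kcnj2 and Kcnj12, strong inward rectifiers known from vessel walls, heart and neurons, were at 15.6 and 26.0 CPM in IP1 and at 19.2 and 35.4 CPM in IP2. The third gene of that type, Kcnj4, known from forebrain neurons, lay at the limit of 10 CPM, and the fourth, Kcnj14, had 11 reads in IP1 and 35 in IP2.

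Genes of the channels that G proteins open in neurons were above 10 CPM in both libraries, and their cardiac member was near 1 CPM. Kcnj3 was at 81.0 CPM in IP1 and 74.9 in IP2. Kcnj9 was at 31.9 and 37.9 CPM and Kcnj6 at 23.8 and 28.1 CPM. Kcnj5, which pairs with Kcnj3 in the atria of the heart, was at 0.583 CPM in IP1 and 2.23 in IP2. Kcnj13, the inward rectifier of choroid plexus and retinal pigment epithelium, was at 2.91 and 4.17 CPM and overlaps the gene Gigyf2. No read was counted for Kcnj1 and Kcnj15, both known from the kidney. Thus 7 of the 13 inward rectifier genes passed 10 CPM in each library, and 9 passed 1 CPM. For comparison, Kcnj8, the pore of the vascular ATP-sensitive channel and not among the 90, was at 202 and 302 CPM and its relative Kcnj11 at 15.7 and 14.1 CPM.

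The windows of the glial pair are shown because both genes were higher in IP2 and differ in CG pairs, with 21 in Kcnj10 (chr1:172340960-172341259, plus strand) and 8 in Kcnj16 (chr11:110997237-110997536, plus strand). Of the 4 windows listed for Kcnj16, this one has most CG pairs.
Kcnj10: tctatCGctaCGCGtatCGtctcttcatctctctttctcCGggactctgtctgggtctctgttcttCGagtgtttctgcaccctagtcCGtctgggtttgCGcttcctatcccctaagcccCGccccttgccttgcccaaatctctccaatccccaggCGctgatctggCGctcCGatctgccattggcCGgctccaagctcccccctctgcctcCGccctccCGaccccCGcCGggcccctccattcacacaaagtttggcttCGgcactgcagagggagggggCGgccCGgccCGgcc
Kcnj16: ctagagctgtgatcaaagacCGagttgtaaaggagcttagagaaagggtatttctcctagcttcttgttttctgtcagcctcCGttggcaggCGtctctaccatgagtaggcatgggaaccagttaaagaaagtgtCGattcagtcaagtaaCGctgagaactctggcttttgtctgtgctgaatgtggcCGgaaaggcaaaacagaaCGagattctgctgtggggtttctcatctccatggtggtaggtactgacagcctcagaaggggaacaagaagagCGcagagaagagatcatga

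Tandem-pore channels, which carry background potassium current, were present through a small number of genes. Kcnk2 (chr1:189207930-189402782), a channel opened by stretch and lipids, was at 126.7 CPM in IP1 and 152 in IP2. Kcnk1, found in astrocytes among other cells, was at 45.8 CPM in IP1 and 77.4 in IP2. These were the 2 genes of 14 that reached 10 CPM in both libraries. Kcnk3, an acid-sensitive channel known from vascular smooth muscle and neurons, was at 9.00 and 12.2 CPM. Its relative Kcnk9 was at 4.22 and 4.87 CPM, Kcnk10 at 5.34 and 8.08 CPM, and Kcnk13, which in the brain is known from microglia, at 4.39 and 5.02 CPM. The other genes were under 1 CPM in both libraries: Kcnk6 (0.644 and 0.811 CPM), Kcnk4 (0.782 and 0.234 CPM), Kcnk12 (14 and 39 reads), Kcnk5 (5 and 7 reads) and Kcnk15 (0 and 3 reads). Kcnk7, Kcnk16 and Kcnk18 had no read, and Kcnk7 overlaps Ehbp1l1. With 6 genes at 1 CPM in both libraries, this class had the smallest share of genes at that level among the 5 classes. The share was 42.9%, against 73.3% of all channel genes, and was close to the 41.3% of all genes.

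Voltage-gated channels made up 40 of the 90 genes and 47.4% of the channel reads in IP1 and 47.0% in IP2. In the Kcna subfamily, whose products form low-threshold channels of axons, Kcna1 (chr6:126636463-126645801) was at 237 CPM in IP1 and 255 in IP2. Kcna2 (chr3:107090883-107115005) was at 217 CPM in IP1 and 214 in IP2, and the exact counting intervals of the 2 libraries overlapped. Kcna6 was at 49.3 and 60.6 CPM and Kcna4 at 13.2 and 12.3 CPM. Kcna5, the member best known from arterial smooth muscle and atrium, was at 1.81 CPM in IP1 and 4.06 in IP2. Kcna3, known from lymphocytes and microglia, was at 2.91 and 2.20 CPM. No read was counted for Kcna7 and Kcna10.

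Delayed and fast rectifiers were counted in both libraries. Kcnb2, a delayed rectifier of neurons, was at 19.0 and 16.1 CPM. Kcnc1, a channel of fast-spiking interneurons, was at 131 CPM in IP1 and 145 in IP2, and Kcnc2 and Kcnc4 lay between 30.8 and 38.3 CPM in both. In the Kcnd subfamily of A-type channels Kcnd3 was at 70.8 and 87.8 CPM, Kcnd2 at 52.4 and 50.8 CPM and Kcnd1 at 2.45 and 3.81 CPM. Kcnd3 overlaps its antisense gene Kcnd3os, and since the strand setting is not given their reads may not be separable.

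Kcnq channels carry the M current of neurons and a resting current of arteries. Of these genes, Kcnq5 was at 52.2 and 56.5 CPM, and Kcnq3 at 36.1 and 45.5 CPM. Kcnq1, known from heart and epithelia, had 34 reads in IP1 and 0 in IP2. Its span holds the antisense transcript Kcnq1ot1, at 2.18 and 2.43 CPM, and the counts do not say on which strand the 34 reads lay.

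Of the ether-a-go-go family, Kcnh7 (42.9 CPM in IP1, 40.5 CPM in IP2), Kcnh5 (33.2 and 34.4 CPM) and Kcnh1 (27.7 and 22.9 CPM) passed 10 CPM in both. Kcnh2, the channel of cardiac repolarization, was at 8.34 and 11.4 CPM and Kcnh3 at 7.87 and 11.2 CPM. Kcnh8, Kcnh4 and Kcnh6 lay between 0.659 and 3.16 CPM. The Kcnf, Kcng, Kcns and Kcnv genes encode subunits that form no channel alone and modify other voltage-gated channels. Here 2 of these 10 silent subunits passed 10 CPM in both libraries, namely Kcnf1 (33.5 and 28.4 CPM) and Kcnv1 (28.4 and 21.8 CPM), which are known from cortical neurons. Kcns2, Kcns3, Kcng3, Kcng1, Kcng4 and Kcns1 lay between 1.21 and 6.12 CPM, Kcng2 had 34 reads in IP1 and 30 in IP2, and Kcnv2, a gene of photoreceptors, had none. By contrast, 18 of the 30 voltage-gated genes outside these subfamilies passed 10 CPM in both.

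Auxiliary subunits held the gene with most reads of all 90. Kcnip3 (chr2:127456498-127522094), a calcium-binding subunit of Kcnd channels that is also known as a transcriptional repressor, was at 412 CPM in IP1 and 378 in IP2, a mean of 395 ± 24.4 CPM (SD, n = 2). It ranked 354 of all genes by mean CPM. Its relatives Kcnip1, Kcnip2 and Kcnip4 lay between 54.2 and 72.5 CPM in both libraries. All 3 cytoplasmic beta subunits of Kcna channels were counted at similar depth, with Kcnab2 at 55.7 and 56.9 CPM, Kcnab3 at 56.6 and 50.7 CPM and Kcnab1 at 38.1 and 33.2 CPM. In the Kcne subfamily of single-span subunits, Kcne4, which joins Kcnq channels in vascular smooth muscle among other tissues, was at 46.1 CPM in IP1 and 44.7 in IP2. Kcne3 had 4 reads in IP1 and 2 in IP2, and Kcne1 and Kcne2, known from heart, inner ear and epithelia, had none. Kcne4 was thus the single member of its subfamily, of 4 listed, above 0.0614 CPM in either library.

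Grouped by the cells that textbooks assign them to, channels of neurons, of vessel walls and of glia were all present. A list of 31 neuronal channel genes had 31 at 1 CPM and 25 at 10 CPM in both libraries, and held 69.4% of the channel reads in IP1 and 65.5% in IP2. A list of 12 genes known from vascular smooth muscle and mural cells had 9 at 1 CPM and 7 at 10 CPM. Among those at 10 CPM were Kcna2, Kcnma1, Kcnq5, Kcnmb1, Kcnj12 and Kcnj2, of which Kcna2 and Kcnma1 are also on the neuronal list. Among those below it were Kcnk3, Kcna5, Kcnk6 and Kcnq1. Of 5 glial channel genes 4 passed 10 CPM in both. Of 16 genes known chiefly from heart, epithelia, sperm and other tissues, 0 passed 10 CPM, 3 passed 1 CPM (Kcnj13, Kcng4 and Kcnu1) and 9 had no read. Of all genes, 28.3% passed 10 CPM and 41.3% passed 1 CPM. The lists were written from general knowledge with earlier results of these data known, so their counts are descriptions.

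Genes that work with these channels were also counted. Of 26 partner and potassium transport genes, 16 (61.5%) passed 10 CPM in both libraries, against 46.7% of the channel genes and 28.3% of all genes. Dpp6 and Dpp10, membrane partners of Kcnd channels, were at 96.5 and 60.7 CPM in IP1 and at 101.5 and 62.0 CPM in IP2. Amigo1, a membrane partner of voltage-gated channels, was at 49.3 CPM in IP1 and 72.03 in IP2, and the Kcna partners Adam22 and Lgi1 at 119 and 95.3 CPM in IP1 and 163 and 94.2 CPM in IP2. The leucine-rich partners of the Kcnma1 channel were mostly at trace levels, with Lrrc55 at 14.9 and 8.43 CPM, Lrrc38 at 0.644 and 1.32 CPM, Lrrc26 at 1 and 25 reads and Lrrc52 at none.

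The libraries were replicates, so their ratio measures the spread between them. Ratios are given as log2 of IP1 over IP2. They were taken in the 76 channel genes with 10 or more reads in total. A ratio of 1.5-fold or more towards IP1 was found in 8 of the 76 (10.5%), against 18.1% of all genes with as many reads. Towards IP2 it was found in 10 (13.2%), against 13.8% of all genes. Both shares were no larger than those of all genes. The median log2 ratio was -0.08 in the channel genes and 0.06 in all genes. In 54 of the 76 the exact 95% counting intervals of the libraries lay apart, against 68.7% of all genes.

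Wide ratios were rarer among channel genes with many reads. Among the 43 with a mean of at least 10 CPM, a selection added after the values were seen, only Kcnj10 (log2 ratio -0.85) and Kcnk1 (-0.76) passed 1.5-fold towards IP2 and Kcnn2 (0.60) towards IP1. In all genes at this level the shares were 6.57% towards IP2 and 4.42% towards IP1. Kcnj16 (-0.57) came next on the IP2 side, and Kcnv1 (0.38), Kcnip4 (0.33) and Kcnh1 (0.27) on the IP1 side. With TMM or DESeq2 library sizes Kcnn2 dropped below 1.5-fold (0.55 and 0.54) and Kcnj16 passed it (-0.63 with both). Wider ratios were found in genes under 5 CPM, named here after their values were seen, among them Kcnk4 (1.71), Kcnu1 (1.59) and Kcnmb2 (1.31) towards IP1 and Kcnj5 (-1.92) and Kcna5 (-1.16) towards IP2.

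**Figure D3:**
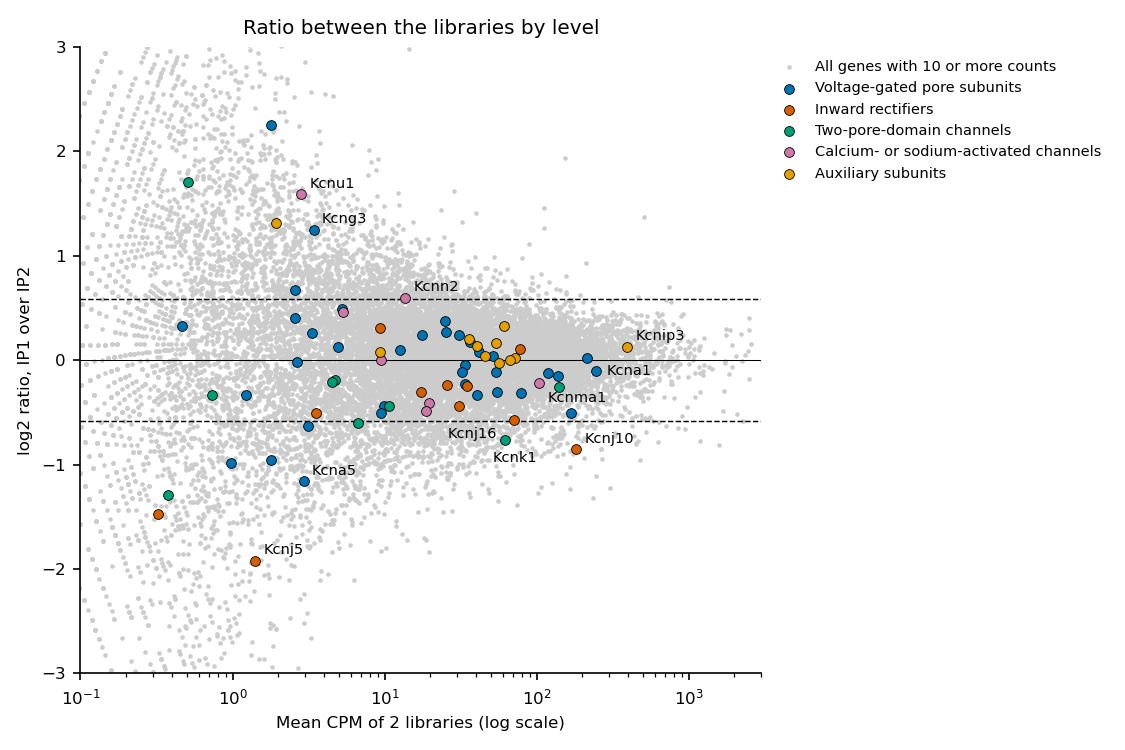
Log2 ratio of IP1 over IP2 against mean CPM (log axis) for 75 potassium channel genes, coloured by class, over all genes with 10 or more reads (grey). Both sets are limited to the axis ranges. Dashed lines mark 1.5-fold, and Kcnq1, with no read in IP2, is not drawn. Of the 75, Kcnk5, at a mean of 0.0865 CPM, falls left of the axis and is not visible. The spread narrows at high CPM, where Kcnj10 at -0.85 and Kcnk1 at -0.76 lie below the lower line.

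By class, the ratios leaned in different directions. Inward rectifiers were higher in IP2 in 9 of 11 genes, with a median log2 ratio of -0.44, and tandem-pore channels in 9 of 10, with a median of -0.32. These counts were the same with TMM or DESeq2 library sizes. Auxiliary subunits were higher in IP1 in 9 of 11 genes (median 0.13), or in 7 of 11 with those library sizes. Voltage-gated genes were divided, 18 higher in IP1 and 19 in IP2, with a median of -0.02, and 16 and 21 with those library sizes. Of all 17306 genes with 10 or more reads, 9571 were higher in IP1 and 7735 in IP2. With TMM library sizes these were 8721 and 8585, and with DESeq2 8678 and 8628. None of these leanings was tested, since genes are not replicates.

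All 5 genes of the glial list, Kcnj10, Kcnj16, Kcnk1, Kcnk2 and Kcnk10, were higher in IP2, with log2 ratios between -0.85 and -0.26 and a median of -0.60. Most astrocyte markers moved the same way, by differing amounts. Of 8 such markers 7 were higher in IP2, with a median log2 ratio of -0.65 and a summed level of 3199 CPM in IP1 and 4793 in IP2. Aqp4 (36.5 and 78.6 CPM) and Slc1a3 (99.4 and 212 CPM), at 0 in neither library, had the widest ratios of the 8. Aldh1l1 (log2 ratio -0.38) and Gfap (-0.10) differed less, and Aldoc (0.08) was higher in IP1. Glul (1404 and 1965 CPM) and Slc1a2 (1158 and 2028 CPM) had most reads in the sum. Other marker lists leaned to IP2 as well. Medians were -0.69 for endothelial markers (6 of 7 higher in IP2), -0.42 for pericyte and mural markers (7 of 12), -0.33 for oligodendrocyte precursor markers (6 of 8), -0.32 for oligodendrocyte markers (6 of 8) and -0.30 for microglia markers (6 of 8). Arterial smooth muscle markers (-0.01) and pan-neuronal markers (0.07) had medians near 0. The part that these cell types had in the channel ratios was not tested. The 31 neuronal channel genes had a median of 0.02, which was -0.03 with TMM and -0.04 with DESeq2 library sizes, and the 12 vascular channel genes -0.26.

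**Figure D4:**
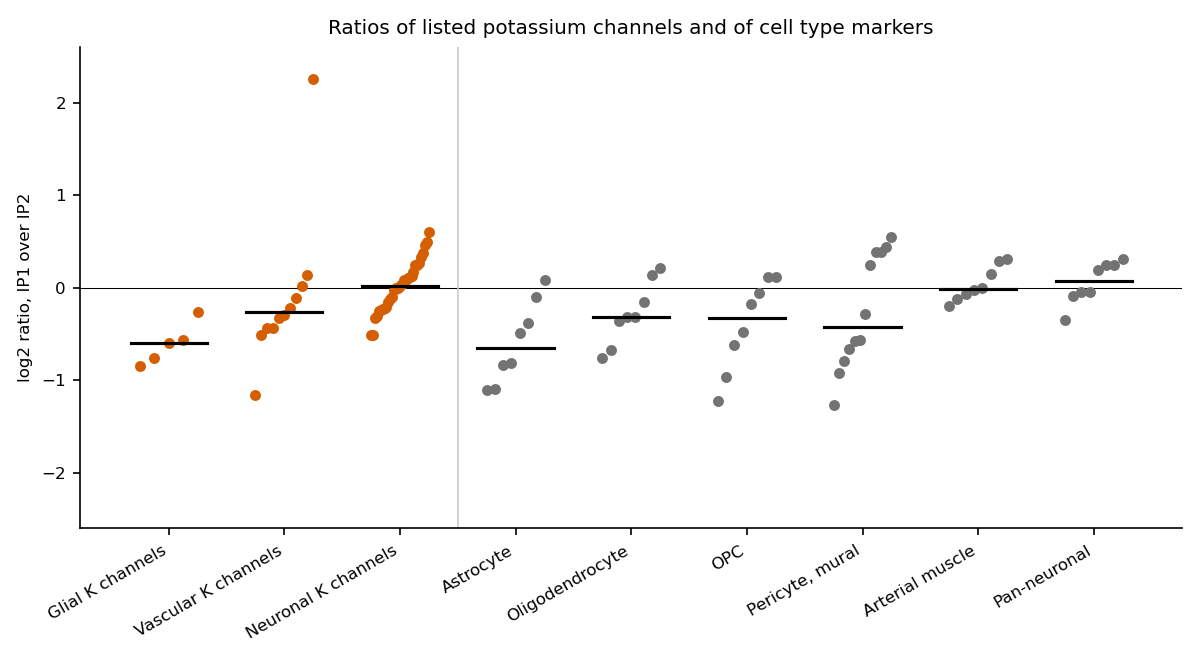
Log2 ratio of IP1 over IP2 of single genes in 3 lists of potassium channels (orange) and 6 lists of cell type markers (grey), with the median of each list as a black bar. Genes with no read in a library are not drawn, nor are the endothelial (median -0.69) and microglia (-0.30) marker lists. Of the lists drawn, glial channels (median -0.60) and astrocyte markers (-0.65) lie lowest, and neuronal channels (0.02) and pan-neuronal markers (0.07) near 0.

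Several channel genes lie side by side in the genome, within 200 kb of the next, and neighbours could be counted very differently. There were 8 such clusters with 18 genes (RefSeq, GRCm38.p6). On chromosome 6, Kcna1 (237 and 255 CPM) lies 100.9 kb from Kcna5 (1.81 and 4.06 CPM) and 62.5 kb from Kcna6 (49.3 and 60.6 CPM). On chromosome 3, Kcna2 (217 and 214 CPM) lies 52.8 kb from Kcna3 (2.91 and 2.20 CPM) and 68.1 kb from Kcna10, which had no read. On chromosome 11, Kcnj16 and Kcnj2 are 38.2 kb apart, and on chromosome 1, Kcnj9 and Kcnj10 are 11.9 kb apart, with all 4 genes above 10 CPM in both libraries. Kcne1 and Kcne2 on chromosome 16 both had no read.

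Promoter windows of RefSeq were at hand for 66 of the 90 genes. Where a gene had several, the one with most CG pairs was taken. Windows with at least 10 CG pairs were found for 23 of 33 channel genes at 10 CPM in both libraries (69.7%), for 17 of 24 counted at lower levels (70.8%) and for 1 of 9 without a read (11.1%). Among all genes these shares were 90.5% at 10 CPM and 9.20% without a read. The median window held 17 CG pairs in channel genes at 10 CPM, against 24 in all genes at that level. The letters TATAAA, searched on both strands, were in 3 of 66 channel windows (4.55%), those of Kcnj9, Kcnj13 and Kcnj15, against 12.3% of all counted genes with a window. The CArG box, a motif named for its letters and bound by serum response factor, was in 0 of 66, against 1.43% of those genes. The neighbours Kcna2 (chr3:107101317-107101616, plus strand, 31 CG pairs) and Kcna10 (chr3:107182893-107183192, plus strand, 0 pairs) are shown as a picked example of a gene with many reads and a gene with none.
Kcna2: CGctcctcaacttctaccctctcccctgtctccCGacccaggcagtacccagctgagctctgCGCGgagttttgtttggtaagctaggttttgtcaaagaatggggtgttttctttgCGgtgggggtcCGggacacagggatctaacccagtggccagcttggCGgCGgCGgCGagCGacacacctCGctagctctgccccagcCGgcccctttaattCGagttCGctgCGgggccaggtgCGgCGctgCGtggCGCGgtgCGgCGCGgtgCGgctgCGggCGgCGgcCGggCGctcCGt
Kcna10: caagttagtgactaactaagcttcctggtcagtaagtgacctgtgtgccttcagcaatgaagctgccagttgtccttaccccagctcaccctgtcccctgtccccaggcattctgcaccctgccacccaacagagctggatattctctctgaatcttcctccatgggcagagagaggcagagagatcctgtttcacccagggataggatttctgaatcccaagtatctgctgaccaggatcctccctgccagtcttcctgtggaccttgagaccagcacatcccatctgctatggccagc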

How the data were processed

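Ribosome-bound RNA was sequenced in 2 libraries of 1 group. STAR 2.0.0e, HTSeq and the build mm10 are listed in the submitters' processing notes. Annotation and strand setting: not given in the sources used here. The deposited files hold raw read counts per gene symbol. HTSeq summary lines and a row that names no gene (1 read in IP1, none in IP2) stayed out, and genes held 58.1% of the listed reads of IP1 and 57.7% of those of IP2. Reads aligned to several places (35031865 in IP1, 39718043 in IP2) were not assigned to genes by the authors' counting, per the file's summary lines.

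Counts were scaled to CPM by the total of gene counts. With 1 group no test was possible, and members are described by counts beside those of all genes. Ratios used a prior of 0.5 reads and genes with 10 or more reads in total. The ratio calls were run on simulated data that held counting error only, with known ratios set in genes with many reads. That run does not bear on the spread between the real libraries or on genes with few reads. Intervals are exact (Clopper-Pearson) and, like the limits for a count of 0, cover counting error only, since reads without molecular identifiers are not independent molecules. TMM (edgeR 4.0.16) and DESeq2 1.42.0 library sizes were alternatives, in R 4.3.3, with Python 3.11.15, pandas 2.3.3 and scipy 1.17.1. Exon lengths were not used here, so the planned levels per kilobase were replaced by CPM. Gene positions and promoters come from RefSeq (GRCm38.p6, the assembly of mm10), matched by symbol for 90 and 66 genes. Spans of 17 channel genes overlap another counted gene. The members, lists and thresholds were chosen with earlier results of these data known. Named were the leading gene of each subfamily (by CPM), the 20 with most reads, the vascular list, genes near the limits, genes without reads and the 4 widest ratios in each direction at a mean CPM of 10 or more. Most remaining channel genes were added. Values of some genes are not reported here, while counts and medians include them.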

Additional observations from a re-analysis of the deposited data

How the results depend on the processing

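Of 62 alternative values, 51 stayed within the tolerance used, which was 1.5 times a count, the SD of the 2 libraries for a level or share, and 0.24 for the median log2 ratio. For class levels and shares, 1 library always lies within that SD of the mean of 2. Those values could not fall outside the tolerance, so the 51 overstate how stable the class values were. Counts of channel genes at 1 and 10 CPM were the same with TMM and DESeq2 library sizes. Read from 1 library alone they were 67 to 68 at 1 CPM and 43 to 45 at 10 CPM. The ratio counts changed most. Towards IP2, 10 genes became 4 at 2-fold and 2 among those whose mean was 10 CPM or more, and towards IP1, 8 became 1 in that selection, which holds fewer genes and was added after the data were seen. Leaving out the 17 genes whose span overlaps another counted gene moved class values because Kcnma1, Kcnmb1 and others then drop out. Shares of channel reads became 52.2% for voltage-gated, 16.9% for inward rectifier, 8.21% for tandem-pore, 1.40% for calcium- or sodium-activated and 21.3% for auxiliary genes. In the same setting median CPM became 21.7 in inward rectifiers, 5.30 in calcium- or sodium-activated channels and 23.7 in auxiliary subunits. Levels per kilobase by exon, transcript or coding length were not run. No paired analysis was possible because the 2 libraries form 1 group. Depth limits statements on genes with few reads, such as Kcnn4, Kcnk15 and Kcne3.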
